A study of Mus musculus with 10 samples.

Results

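The genes described here are 9 mouse genes that lie outside chromosomes 6, 8, 11 and 15 and were chosen because their signal was lower in every trisomic embryonic stem (ES) cell line than in diploid cells. They are Chst3, Ntm, Spats2l, Sema3e, Prr18, Raet1a, Wdr86, Rassf9 and Ctxn3. They were found by the gene name of their probes on the array, which gave 10 probes, 2 of them for Ntm, and all 9 were among the 28189 genes tested. The choice used the comparison with diploid cells, so those values are a description and no test of them is offered.

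The control was AB1, a male diploid ES cell line (WT), taken at passages 18 and 20, and its strain is labelled AB1. The other groups were ES cells with 3 copies of chromosome 6 (Ts6, passages 9 and 18), chromosome 8 (Ts8, passages 10 and 13), chromosome 11 (Ts11, passages 8 and 11) or chromosome 15 (Ts15, passages 11 and 14), with the strain labelled 129 S7/SvEvBrd. Every group had 2 biological replicates, per the study's design text, on 10 Agilent arrays that read 1 dye. All cells were untreated and grown on irradiated SNL76/7 feeder cells, which were depleted by settling before RNA was extracted. Each trisomy was 1 cell line sampled at 2 passages, so the extra chromosome, the line and its time in culture cannot be told apart. Every comparison with WT uses the same 2 WT arrays, of 1 control line with a different strain label. A low level in every trisomic line therefore cannot be told apart from a high level particular to the control. For the same reason the falls in the lines are not independent of each other.

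The 9 genes do not form 1 pathway. Sema3e is a secreted semaphorin, a guidance signal for axons and blood vessels that acts through the receptor plexin D1. Ntm encodes neurotrimin, an adhesion molecule of the IgLON group held on the cell surface by a lipid anchor, and Raet1a encodes a surface ligand of NKG2D, the activating receptor of natural killer cells. Chst3 is a Golgi enzyme that adds sulfate to chondroitin, the sugar chain of many matrix proteoglycans. The others are Ctxn3, a small membrane protein of the cortexin family, Rassf9, which carries a Ras-association domain, Spats2l, a relative of the cytoplasmic protein Spats2, and Wdr86 (WD repeats) and Prr18 (proline rich), whose roles are less well known.

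A level is given as the log2 signal of a probe less the 75th percentile of its array, so a level below 0 is a signal under that percentile. Levels are compared between arrays and never between probes. The share of spots well above background was 71.4% to 80.2% per array, and no spot was saturated. The Ts15 arrays shared slide 2 and all the others slide 1, so Ts15 and slide cannot be told apart. On slide 1 each group filled 1 slide column, so group and column cannot be told apart there either. In bulk RNA, fewer cells that express a gene and less RNA per cell cannot be told apart.

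**Figure D1:**
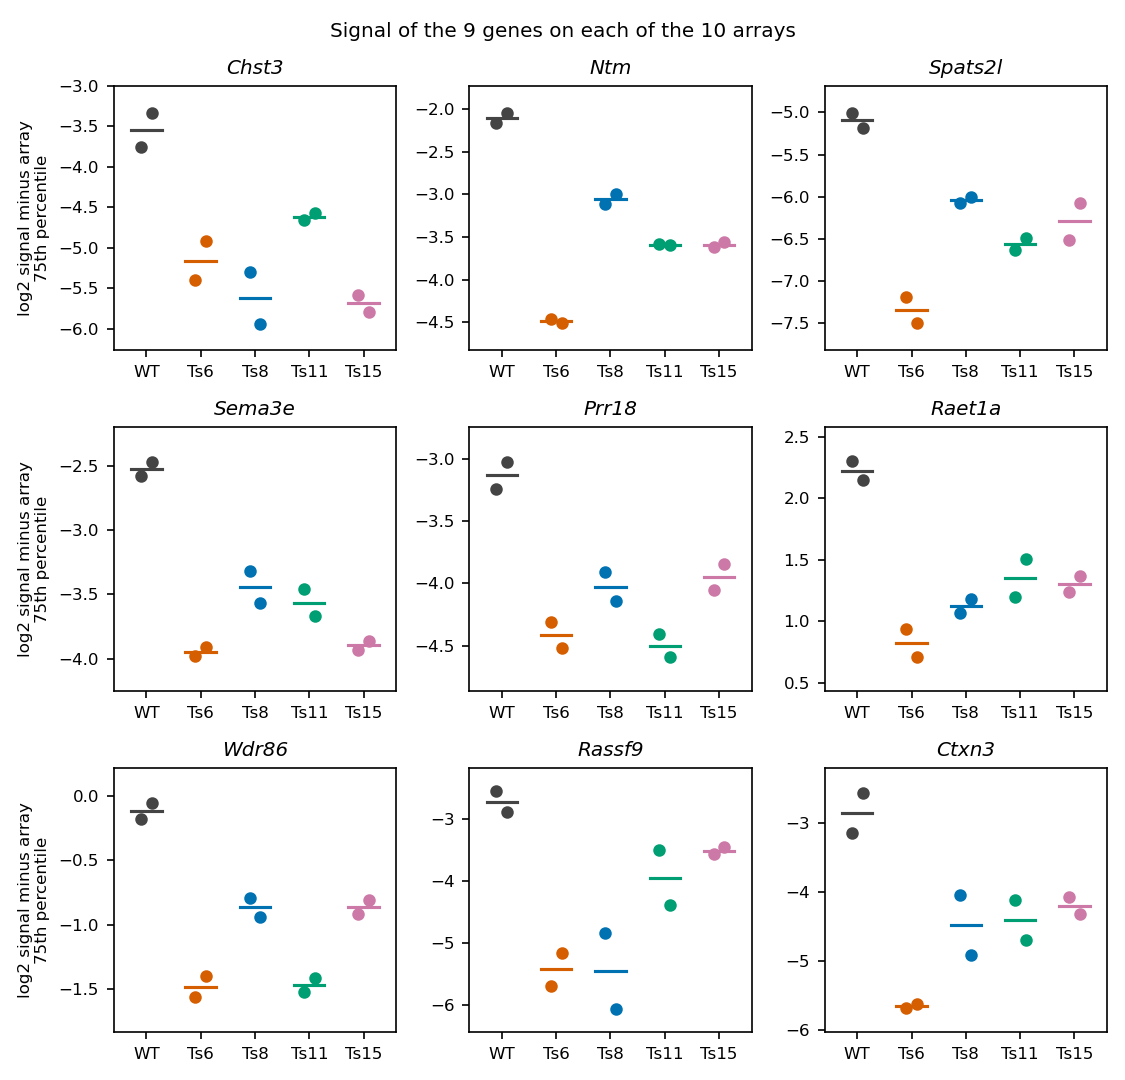
Level of each gene (log2 signal relative to the 75th percentile of its array, y axis, a separate scale per gene) on the 10 arrays. Points are arrays and lines are group means (n = 2), and in all 9 genes the 8 trisomic arrays lie below both WT arrays.

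On every trisomic array all 9 genes were below both WT arrays. By comparison, 4.16% of all genes tested had all 8 trisomic arrays below both WT arrays. For both arrays of a single line the share was 30.4% (Ts6), 24.4% (Ts8), 26.9% (Ts11) and 30% (Ts15). The number called lower than WT (limma, adjusted p under 0.05) was 9 of 9 for both Ts6 and Ts8 and 8 for both Ts11 and Ts15. The share of all genes called lower was 4.59% (Ts6), 1.43% (Ts8), 4.1% (Ts11) and 4.85% (Ts15). Nothing is read from these counts, since the genes were chosen on this comparison. The gene not called in Ts11 or Ts15 was Rassf9. The number of genes called lower in all 4 lines was thus 8 of the 9, which describes the chosen genes and tests nothing. The median difference from WT over the 9 genes was -1.62 (Ts6), -0.95 (Ts8), -1.34 (Ts11) and -1.20 (Ts15) on the log2 scale, against medians over all genes of -0.01, 0.04, 0.003 and -0.006.

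**Figure D2:**
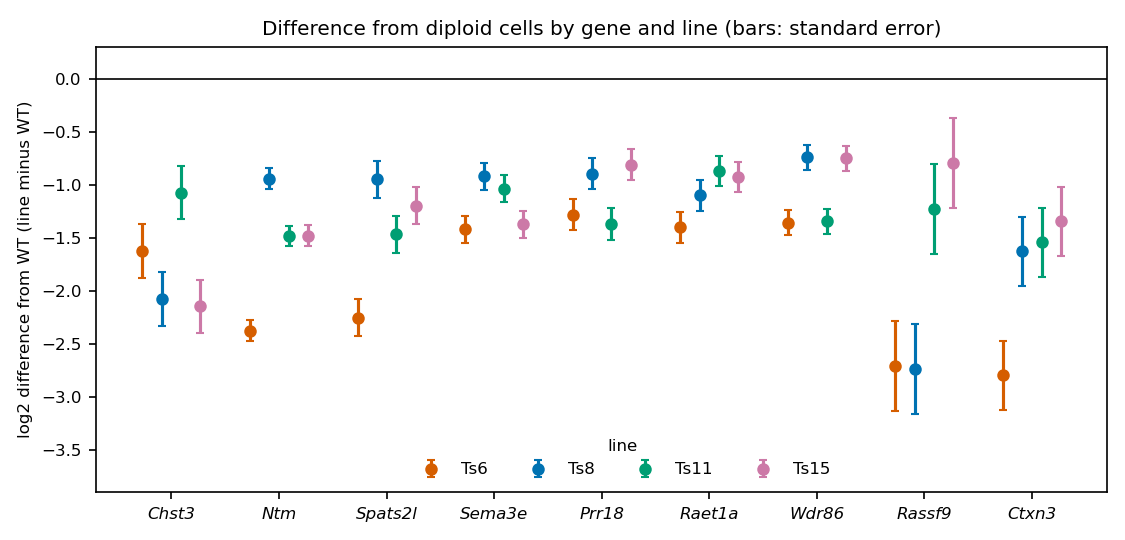
Difference from WT (log2, line minus WT, y axis) for each gene (x axis) and line (colours), with bars for the standard error of the fit (2 arrays against 2). All points lie below 0, from -0.74 (Wdr86 in Ts8) to -2.80 (Ctxn3 in Ts6), and those of Spats2l in Ts6 and Ts11 rest on signal not well above background.

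The count of 8 depended on single arrays. It was 1 without either WT replicate, 2 without either Ts6 replicate, 7 and 0 without Ts8 replicates 1 and 2, 4 and 5 without Ts11 replicates 1 and 2, and 3 and 4 without Ts15 replicates 1 and 2. The trisomic arrays were mostly of earlier passage than WT, and with passage as a covariate the count was 0. In that fit the falls of Chst3, Ntm and Wdr86 were smaller in every line, and those of the other genes were larger. Why the calls were lost was not tested. Ts6 replicate 2 and WT replicate 1 were both of passage 18. Their difference, of 1 array from 1, ran from -1.18 (Chst3) to -2.61 (Rassf9) over the 9 genes, with Spats2l not above background in Ts6.

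Among the secreted and surface proteins, Sema3e had levels of -2.58 and -2.47 on the WT arrays, -3.98 and -3.91 on those of Ts6, -3.32 and -3.57 for Ts8, -3.46 and -3.67 for Ts11 and -3.93 and -3.86 for Ts15. Ts6 and Ts15 overlapped at the bottom, Ts8 and Ts11 overlapped above them, and all were clear of WT. The differences from WT were -1.42 (Ts6), -0.92 (Ts8), -1.04 (Ts11) and -1.37 (Ts15), with an SE of 0.13, so the signal stood at 37.4%, 53.0%, 48.7% and 38.6% of WT. The probe lies at chr5:14256598-14256656 in mm9, the build of the array files, and as for all probes here its exon was not determined.

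Ntm differed most clearly from line to line. Its levels were -2.16 and -2.05 on the WT arrays, -4.46 and -4.51 on those of Ts6, -3.11 and -3.00 for Ts8, -3.58 and -3.60 for Ts11 and -3.62 and -3.56 for Ts15 (chr9:28803970-28804029, mm9). Replicates lay close together (SD 0.0092 to 0.077), and only Ts11 and Ts15 overlapped. The differences from WT were -2.38, -0.94, -1.48 and -1.48 (SE 0.099), which left 19.3%, 52.0%, 35.8% and 35.8% of the WT signal.

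The other Ntm probe, at chr9:28816842-28816901, had levels of -3.97 and -3.86 on the WT arrays, -8.20 and -8.15 on those of Ts6, -6.36 and -5.50 for Ts8, -6.73 and -6.20 for Ts11 and -6.83 and -6.27 for Ts15. It was above background on no Ts6 or Ts11 array and on 1 of 2 Ts15 arrays. Against the lowest signal that counts as above background Ts6 was at least 3.98-fold lower than WT on this probe, and for Ts11 the bound was 4.99-fold. In Ts8, above background on both arrays, it differed from WT by -2.02, against -0.94 on the brighter probe, so the probes disagreed on the size. Its sequence, from the array files, is shown because its signal was not above background in Ts6 and Ts11.
Ntm other probe: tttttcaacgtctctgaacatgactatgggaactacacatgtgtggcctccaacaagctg

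Raet1a levels were 2.30 and 2.15 on the WT arrays, 0.94 and 0.71 on those of Ts6, 1.07 and 1.18 for Ts8, 1.20 and 1.51 for Ts11 and 1.24 and 1.37 for Ts15 (chr10:22091376-22091435, mm9). Ts6 was lowest, Ts8 lay just above it, Ts11 and Ts15 overlapped, and none reached WT. The differences from WT were -1.40, -1.10, -0.87 and -0.92 (SE 0.14), or 37.9%, 46.7%, 54.6% and 52.7% of the WT signal.

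Raet1a belongs to a family of near-identical genes clustered on chromosome 10, so it is uncertain which copies its probe reads. The probes named Raet1c in the array files share runs of bases with it: 1 run of 18 and 1 of 20 in the first, and the run of 18 in the other. The first carries an accession that RefSeq now lists under Raet1e. The 3 sequences, from the array files, show this overlap, with shared runs of 10 or more bases in capitals.
Raet1a: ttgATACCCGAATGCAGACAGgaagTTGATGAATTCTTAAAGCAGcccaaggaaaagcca
Raet1c probe 1: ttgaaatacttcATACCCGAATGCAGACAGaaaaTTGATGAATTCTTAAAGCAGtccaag
Raet1c probe 2: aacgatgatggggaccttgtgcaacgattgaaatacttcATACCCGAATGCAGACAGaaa

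Raet1c probe 1, which may thus read Raet1e, differed from WT by -0.70, -1.06, -0.50 and -0.66 (lines in the order used above), and all 8 of its trisomic arrays were below both WT arrays. Raet1c probe 2 differed by -0.38, -1.14, -0.24 and -0.70, with Ts8 lowest at -1.27 and -1.42 against -0.30 and -0.11 in WT. All 8 of its trisomic arrays were also below both WT arrays. For the probe named Raet1b, which shares at most 7 bases in a row with the Raet1a probe, the differences were -0.85, -0.78, -0.52 and -0.34. That of Raet1e shares at most 5 and gave -1.05, -0.93, -0.64 and -0.65. On the brighter probe of the more distant ligand Ulbp1 the groups overlapped, with differences of -0.05, -0.12, 0.17 and 0.21. Its dimmer probe differed by 0.60, -0.19, 0.09 and 0.14, with Ts6 (-4.26 and -4.57) above WT (-5.00 and -5.01). The probe of H60a differed by -0.68, -0.46, -0.31 and -0.22, and that of H60b by -0.66, -0.24, -0.34 and -0.38.

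**Figure D3:**
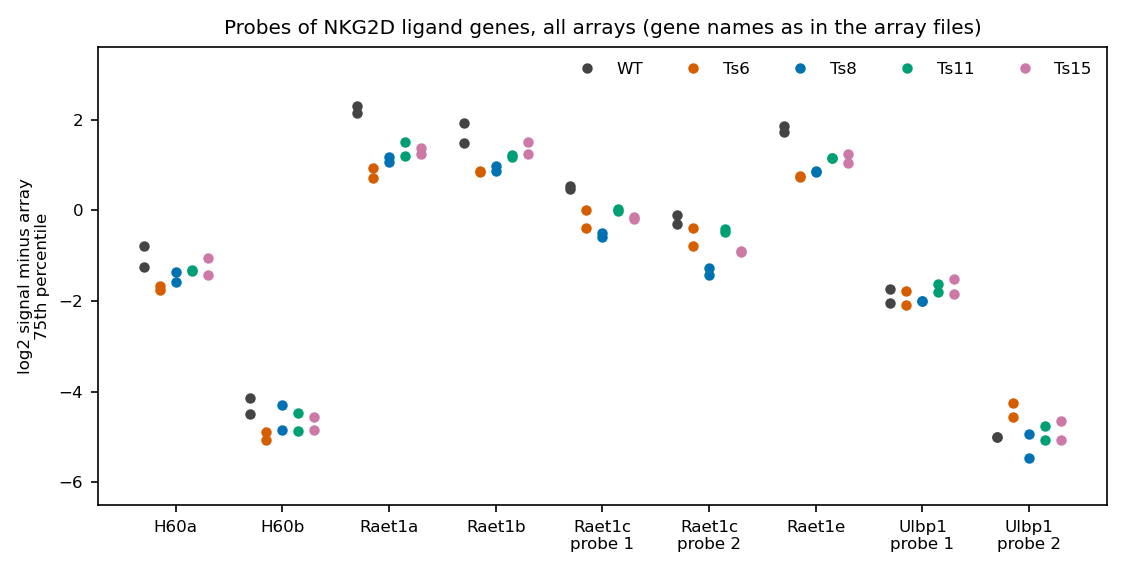
Level (log2 signal relative to the 75th percentile of its array, y axis) of the probes of NKG2D ligand genes (x axis, names as in the array files) on each array, coloured by group. Points should be compared within a probe: for Raet1a, Raet1e and both Raet1c probes every trisomic array lies below both WT arrays, while Ulbp1 probe 1 has overlapping groups.

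Ctxn3 had levels of -3.15 and -2.56 on the WT arrays, -5.68 and -5.62 on those of Ts6, -4.05 and -4.92 for Ts8, -4.11 and -4.69 for Ts11 and -4.08 and -4.32 for Ts15. Ts6 was lowest and separate, while Ts8, Ts11 and Ts15 overlapped each other. Line minus WT came to -2.80, -1.63, -1.54 and -1.34 (SE 0.33), or 14.4%, 32.4%, 34.3% and 39.4% of the WT signal. Its probe (chr18:57637225-57637284, mm9) is printed 10 times on each array, and 8 to 10 spots per array were used after flagged spots were left out. The SD over spots was 0.056 to 0.273, whereas the SD between the 2 WT arrays was 0.421, wider than that between the spots of either array.

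**Figure D4:**
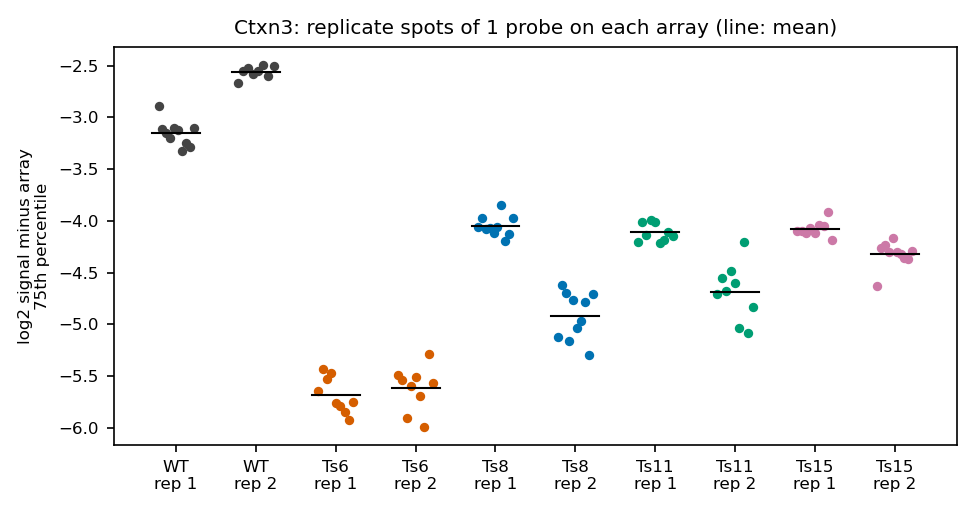
Level of Ctxn3 (log2 signal relative to the 75th percentile of its array, y axis) in each replicate spot (points) of each array (x axis), with the mean over spots as a line. The highest spot of any trisomic array, at -3.84 on Ts8 replicate 1, lies below the lowest WT spot, at -3.33.

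Chst3, the chondroitin sulfotransferase, had levels of -3.75 and -3.33 on the WT arrays, -5.40 and -4.92 on those of Ts6, -5.30 and -5.94 for Ts8, -4.66 and -4.57 for Ts11 and -5.58 and -5.79 for Ts15 (chr10:59644506-59644565, mm9). Ts11 was the highest of the lines and separate from them. Ts8 overlapped both Ts6 and Ts15. Set against WT, the lines stood at -1.62, -2.08, -1.07 and -2.15 (SE 0.25), which left 32.5%, 23.7%, 47.5% and 22.6% of the WT signal.

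Of the intracellular proteins, Rassf9 was the most variable. It had levels of -2.55 and -2.88 on the WT arrays, -5.68 and -5.16 on those of Ts6, -4.84 and -6.06 for Ts8, -3.50 and -4.38 for Ts11 and -3.56 and -3.45 for Ts15 (chr10:102008350-102008409, mm9). Ts6 and Ts8 overlapped at the bottom and Ts11 and Ts15 overlapped nearer to WT. Relative to WT the values were -2.71, -2.74, -1.23 and -0.79 (SE 0.42), and 1 of the 2 Ts8 arrays was not above background.

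Spats2l was close to background in 3 of the lines. Its levels were -5.01 and -5.18 on the WT arrays, -7.19 and -7.50 on those of Ts6, -6.08 and -6.00 for Ts8, -6.63 and -6.49 for Ts11 and -6.51 and -6.07 for Ts15 (chr1:58005107-58005166, mm9). It was not well above background on any Ts6 or Ts11 array, nor on 1 Ts15 array. Against the lowest signal that counts as above background Spats2l was at least 1.76-fold lower than WT in Ts6, and in Ts11 at least 2.2-fold lower. The measured differences were -2.25, -0.95, -1.47 and -1.20 (SE 0.18).

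Wdr86 split the lines into pairs. Its levels were -0.18 and -0.06 on the WT arrays, -1.56 and -1.40 on those of Ts6, -0.79 and -0.94 for Ts8, -1.52 and -1.41 for Ts11 and -0.92 and -0.81 for Ts15 (chr5:24218125-24218184, mm9). Ts6 and Ts11 overlapped low, Ts8 and Ts15 overlapped above them, and the differences from WT were -1.36, -0.74, -1.34 and -0.75 (SE 0.12).

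Prr18 had levels of -3.24 and -3.02 on the WT arrays, -4.31 and -4.52 on those of Ts6, -3.91 and -4.14 for Ts8, -4.41 and -4.59 for Ts11 and -4.05 and -3.84 for Ts15 (chr17:8536893-8536952, mm9). As for Wdr86, Ts6 and Ts11 were the lower pair and Ts8 and Ts15 the upper one. Line minus WT was -1.28, -0.89, -1.37 and -0.81 (SE 0.15).

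How far each gene fell in one line relative to another was not the rule by which the genes were chosen. These differences were tested (limma, two-sided, Benjamini-Hochberg over all genes within each pair of lines). The choice did use the same arrays, and it can favour genes with large falls and a small spread. The counts of calls beside the shares of all genes are therefore a description only. Of 54 differences, over 9 genes and 6 pairs of lines, 19 were called, and 32 had an unadjusted p under 0.05. The calls were 4 of 9 for Ts6 against Ts8 (13.7% of all genes called in either direction), 2 for Ts6 against Ts11 (7.28%) and 5 for Ts6 against Ts15 (18.2%). They were 2 for Ts8 against Ts11 (7.81%), 3 for Ts8 against Ts15 (17.2%) and 3 for Ts11 against Ts15 (15%). In each of the 11 calls with Ts6 the value was lower in Ts6, though 3 of them, of Spats2l, rest on signal not above background there. In these pairs the shares of all genes called lower were 7.41% (against Ts8), 3.49% (against Ts11) and 7.85% (against Ts15).

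**Figure D5:**
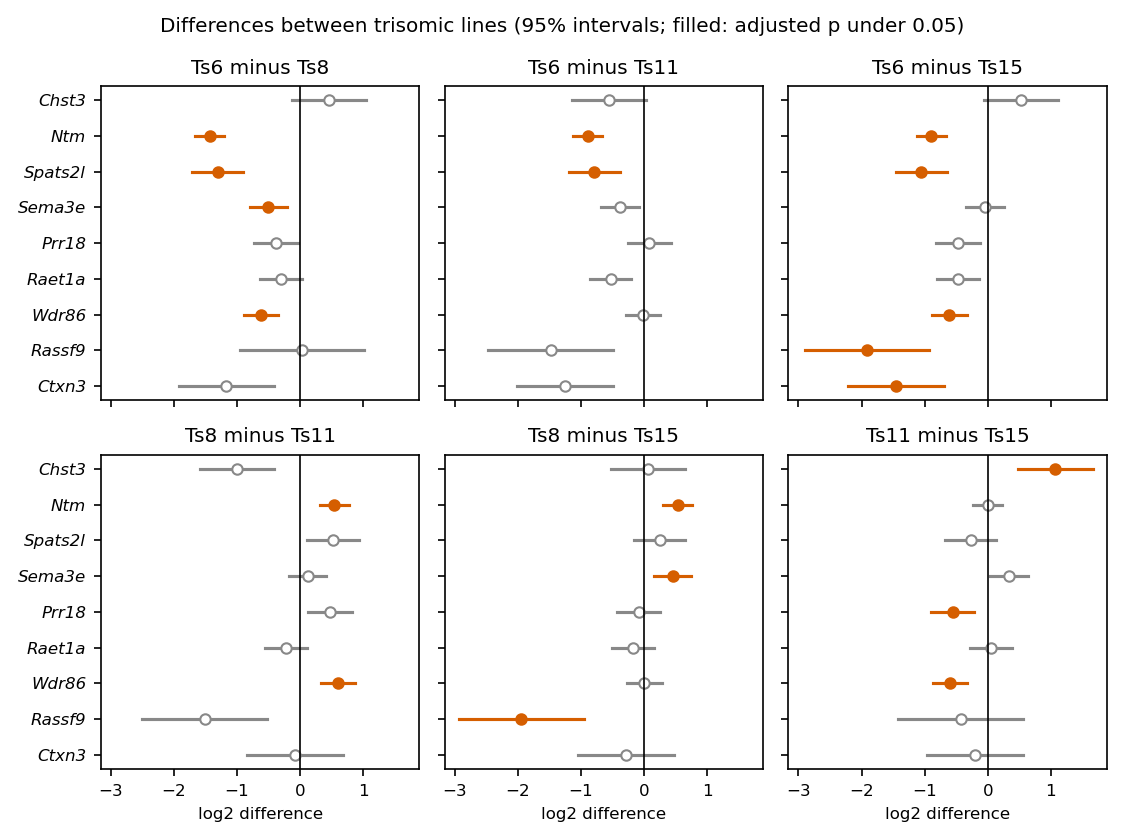
Differences between trisomic lines (log2, x axis) for each gene (y axis) in the 6 pairs of lines, with 95% intervals from the fit and filled points where the adjusted p was under 0.05. In the top row the filled points all lie left of 0, at -0.50 to -1.91, that is lower in Ts6, and 3 of them are of Spats2l, whose Ts6 signal was not well above background.

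Ntm was called in 5 of its 6 pairs. It was lower in Ts6 than in Ts8 by 1.43 (adjusted p = 0.00023), than in Ts11 by 0.89 (adjusted p = 0.0045) and than in Ts15 by 0.90 (adjusted p = 0.0015), all on the log2 scale from limma. Ts8 was higher than Ts11 by 0.54 (adjusted p = 0.018) and than Ts15 by 0.54 (adjusted p = 0.013). Both of these calls were lost with the mean of Ntm's probes and with only the groups compared. The call against Ts11 was also lost with no scaling between arrays, and that against Ts15 with normexp. On the other Ntm probe the Ts8 arrays overlapped those of Ts11, not above background there, and of Ts15. Between Ts11 and Ts15 the brighter probe differed by -0.002, with a 95% interval of -0.23 to 0.23. The 3 calls with Ts6 remained in each fit that left out 1 array.

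For Wdr86 the 4 pairs that cross its low and high lines were called. Ts6 minus Ts8 was -0.61 (adjusted p = 0.015), Ts6 minus Ts15 was -0.61 (adjusted p = 0.012), Ts8 minus Ts11 was 0.60 (adjusted p = 0.022) and Ts11 minus Ts15 was -0.59 (adjusted p = 0.016; limma). Within the pairs, Ts6 minus Ts11 was -0.01 (95% interval -0.28 to 0.26) and Ts8 minus Ts15 was 0.01 (95% interval -0.26 to 0.28). Prr18 was called in 1 pair, Ts11 minus Ts15, at -0.56 (adjusted p = 0.044), a call that passed in 7 of 20 alternatives.

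For Spats2l the fit called Ts6 minus Ts8 (-1.31, adjusted p = 0.0041), Ts6 minus Ts15 (-1.05, adjusted p = 0.0071) and Ts6 minus Ts11 (-0.79, adjusted p = 0.039), but its probe was above background on no Ts6 array. The lowest signal that counts as above background puts Ts6 at or below -5.91, which is above the means of Ts8 (-6.04), Ts15 (-6.29) and Ts11 (-6.56), so no fold is given and no difference between these lines is shown. With normexp background correction the 3 values shrank to -0.338 (Spats2l Ts6 minus Ts8), -0.369 (Spats2l Ts6 minus Ts15) and -0.238 (Spats2l Ts6 minus Ts11), none called, and Spats2l Ts6 minus WT went from -2.25 to -0.883. Rassf9 was lower than in Ts15 by 1.91 in Ts6 (adjusted p = 0.021) and by 1.94 in Ts8 (adjusted p = 0.023). Rassf9 was above background on only 1 of the 2 Ts8 arrays. Its differences of -1.48 for Ts6 minus Ts11 and -1.51 for Ts8 minus Ts11 had adjusted p of 0.078 and 0.076.

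Ctxn3 was called for Ts6 minus Ts15, at -1.45 (adjusted p = 0.021), and its differences from Ts8 and Ts11 were -1.17 (adjusted p = 0.053) and -1.25 (adjusted p = 0.060; limma). Chst3 was called for Ts11 minus Ts15, at 1.07 (adjusted p = 0.030), and Ts8 minus Ts11 was -1.01 (adjusted p = 0.054). The Chst3 call was lost with quantile normalization, with normexp, in the authors' table and with no filter on dim probes. Sema3e was called for Ts6 minus Ts8, at -0.50 (adjusted p = 0.040), and for Ts8 minus Ts15, at 0.46 (adjusted p = 0.048), calls that passed in 6 of 21 and 3 of 20 alternatives. Raet1a was called in no pair: its widest difference was -0.53 for Ts6 minus Ts11 (adjusted p = 0.066), with a 95% interval of -0.86 to -0.20.

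Of the 19 calls, 11 were in pairs with Ts15, where line and slide cannot be told apart, and 8 were in pairs on slide 1. The Rassf9 call for Ts8 minus Ts15 rests in part on a Ts8 array that was not above background. Apart from the 3 of Spats2l, which rest on signal at background, 16 calls remain, and of these the 3 Ntm pairs with Ts6 passed the threshold in every fit that left out 1 array.

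The 9 genes were not the only ones lower in all lines. Outside chromosomes 6, 8, 11 and 15, 21 of 22137 genes tested were called lower in all 4 lines, 8 of them described here, and over the whole genome 0.0816% of genes were. Among these 21, ranked by the smallest of the 4 falls, Ctxn3 had rank 1 (-1.34) and Wdr86 rank 11 (-0.74). Whether called or not, 216 genes outside those chromosomes, the 9 included, were lower by at least 0.5 in every line, and among all genes outside them Ctxn3 had rank 7 and Wdr86 rank 78. The smallest such falls among the 9 genes were those of Wdr86, Prr18 (-0.81) and Raet1a (-0.87). The nearest other genes above Wdr86 were Fndc3c1 on chromosome X (-0.75), Tmem254a (-0.76) and Ptch1 (-1.11), the Hedgehog receptor. The nearest below were Fam187b (-0.74), an unnamed gene read by probe A_55_P2026385 (-0.67) and Kctd12b on chromosome X (-0.64).

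Chst3, Raet1a and Rassf9, 3 of the 9 genes, are on chromosome 10, which held 4.48% of the genes tested, and their probes lie far apart on it. Sema3e and Wdr86 are both on chromosome 5. Promoter windows from RefSeq (GRCm38.p6, 250 bases before to 50 after a gene's start) were found for 6 of the 9 genes, as 8 windows: Chst3, Ntm, Spats2l, Sema3e, Prr18 and Wdr86. They were searched on both strands for 6 motifs, picked after the windows were seen. The E-box CACGTG was in 2 of the 8 windows, Sema3e and Wdr86, against 7.15% of all 32851 windows. The GC box GGGCGG was in 4 (35.7% of all) and CCAAT in 3 (37.4%). TATAAA (13.6%), the octamer ATTTGCAT (1.74%) and the Gli-type site GACCACCCA (0.253%) were in none. These matches are a description of letters only.

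The windows of Sema3e (chr5:14025026-14025305, plus strand) and Wdr86 (chr5:24730651-24730930, minus strand), from 250 bases before to 30 after the start, are shown because they share the E-box, in capitals. It begins 23 bases after the start in Sema3e and 151 bases before it in Wdr86.
Sema3e: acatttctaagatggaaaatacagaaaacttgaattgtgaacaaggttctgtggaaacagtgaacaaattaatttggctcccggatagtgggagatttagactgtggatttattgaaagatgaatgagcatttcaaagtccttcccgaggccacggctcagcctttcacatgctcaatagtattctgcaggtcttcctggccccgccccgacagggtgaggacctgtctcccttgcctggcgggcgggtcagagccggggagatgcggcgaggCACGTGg
Wdr86: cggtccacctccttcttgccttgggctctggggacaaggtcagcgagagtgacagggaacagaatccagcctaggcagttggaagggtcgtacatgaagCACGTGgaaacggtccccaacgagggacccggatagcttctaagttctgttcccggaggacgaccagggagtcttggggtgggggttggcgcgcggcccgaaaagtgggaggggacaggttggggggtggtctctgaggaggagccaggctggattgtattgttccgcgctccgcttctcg

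Genes of the families and pathways around the 9 were described next. Of 73 listed in 6 groups, 63 were tested against WT in 4 lines, and of these 252 tests 28 were called lower and 3 higher (limma). The shares of all genes called in either direction were 9.03% (Ts6), 3.47% (Ts8), 8.13% (Ts11) and 7.43% (Ts15).

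Enzymes of sulfation and chondroitin synthesis, the setting of Chst3, held 14 of the 28 lower calls made over the related genes. The list also made up 28 of the 63 related genes tested, so this is near its share of the genes. Of the list's 28 tested genes, 5 were called lower in Ts6, and 2, 6 and 1 in the lines Ts8, Ts11 and Ts15, with none higher. Of all genes, 4.59% (Ts6), 1.43% (Ts8), 4.1% (Ts11) and 4.85% (Ts15) were called lower. The medians over the list were -0.36, -0.38, -0.24 and -0.10. Chpf2, a chondroitin polymerizing enzyme, was lower in Ts6 (-1.06, SE 0.14, adjusted p = 0.0048), Ts8 (-0.91, adjusted p = 0.027) and Ts11 (-0.83, adjusted p = 0.016), and differed by -0.37 in Ts15 (adjusted p = 0.16). Chst7, which like Chst3 sulfates chondroitin, was lower in Ts6 (-1.47) and Ts11 (-0.85). Chst15, which adds a further sulfate to chondroitin, was lower in Ts6 (-1.0) and Ts11 (-1.04). The uronyl sulfotransferase Ust was lower in Ts6 (-1.31) and Chst2 in Ts6 (-0.87). Chst5, on chromosome 8, was lower in Ts11 (-2.06, SE 0.41).

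Among 16 class 3 semaphorins and receptors tested, the set to which Sema3e belongs, 3 were called lower and 2 higher in Ts6, 1 lower in Ts11 and 1 lower in Ts15, with medians of -0.16, -0.16, -0.12 and -0.04. In Ts6, Sema3c (-1.11), Plxnc1 (-0.95) and Plxna2 (-0.52) were lower and Plxnb3 (0.99) and Plxna1 (0.66) higher, and Plxna1 lies on chromosome 6. Plxna4 was lower in Ts11 (-1.09), where 1 of 2 arrays was above background, and in Ts15 (-1.02). Plxnd1, the receptor of Sema3e, also lies on chromosome 6 and was not called: its differences were -0.02, -0.12, 0.18 and 0.27 (SE 0.16). Nrp1, a co-receptor of class 3 semaphorins on chromosome 8, was not called either, at -0.84, -0.62, -0.58 and -0.20 (SE 0.34).

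Of 6 NKG2D ligand and receptor genes tested, the number called lower was 2 in Ts8 and 1 in each other line, and none was higher. Raet1c was lower in Ts8 (-1.14) and Ts15 (-0.70), and Raet1e, through the probe named Raet1b above, in Ts6 (-0.85) and Ts8 (-0.78). Hcst, the signalling partner of NKG2D, was lower in Ts11 (-0.55). Klrk1, which encodes NKG2D itself, did not pass the filter on dim probes. In the RASSF family, with 9 tested, Rassf2 was lower in Ts6 (-0.75) and Ts11 (-0.88) and Rassf3 in Ts11 (-0.53), while Rassf8, on chromosome 6, was higher in Ts6 (0.73). Spats2 was lower in Ts11 (-0.55), and Ctxn1 was not called in any line, at -0.28, 0.40, -0.15 and -0.40. Of the IgLON genes besides Ntm, Iglon5 alone was tested and was not called.

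Markers of the cell types that the cultures could hold were read beside these values. Of 18 naive pluripotency markers, all 3 defining ones were above background on all arrays, and 1 was called, Tfcp2l1, lower in Ts8 (-0.64). The 25 feeder fibroblast markers tested had a summed linear signal of 70.6 to 71.9 in WT, 51.4 to 63.7 in Ts6, 55.3 to 65.1 for Ts8, 58.4 to 70.9 for Ts11 and 76.8 to 87.9 for Ts15 (in units of the array's 75th percentile). Of them, Col5a2 was lower in Ts6 (-1.20) and Acta2 higher in Ts15 (0.65), and 6 of 7 defining feeder markers were above background on all 10 arrays. The sum was below both WT arrays in Ts6 and Ts8, reached the WT range at its upper end in Ts11, and was above WT in Ts15. Of 13 primitive and visceral endoderm markers, 8 were higher in Ts15, among them Dab2 on chromosome 15, and 3 and 1 were lower in Ts6 and Ts11. Their medians were -0.51 (Ts6), -0.20 (Ts8), -0.52 (Ts11) and 1.05 (Ts15). Among 14 primed epiblast markers 4, 2 and 2 were lower in Ts6, Ts8 and Ts11. Those higher were Zic5 in Ts6 (0.46) and Foxa2 in Ts15 (1.95). Of 14 neuroectoderm markers 4 were lower in Ts6 and 1 in Ts11. The shares of all genes called in either direction were 9.03% (Ts6), 3.47% (Ts8), 8.13% (Ts11) and 7.43% (Ts15). The part of any of these markers, feeder markers included, in the values of the 9 genes was not tested.

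The genes whose pattern over the 10 arrays was most like the mean of the 9, each gene first scaled, were Spata13 (Pearson r = 0.97), Ccdc85a (0.96), Zfp865 (0.95), Ramp3 (0.95) and Paqr8 (0.94). The arrays share the WT-to-trisomy contrast on which the 9 genes were chosen, so these values describe likeness and carry no test. Ccdc85a differed from WT by -1.93, -1.51, -1.40 and -1.11 and Paqr8 by -1.35, -1.02, -1.03 and -1.08, while Spata13 differed by -0.45, -0.31, -0.35 and -0.28. Ramp3 and Ccdc85a lie on chromosome 11. For single genes, the closest were Zfp865 (0.99) and Trak1 (0.97) to Wdr86, Rassf2 (0.96) and Trak1 (0.96) to Prr18, and Hnrnpl (0.98) and Kctd1 (0.95) to Spats2l. Hnrnpl (0.96) and Mup20 (0.96) were closest to Ntm, Irs3 (0.97) and Spata13 (0.95) to Ctxn3, and Saa3 (0.97) and Wdr18 (0.96) to Rassf9. Ikzf2 (0.96) was closest to Sema3e, followed by a lincRNA probe on chromosome 13 (0.94). The nearest to Raet1a were Foxe3 (0.94) and Serinc5 (0.92), and to Chst3 B830008H07Rik (0.94) and Dxo (0.92).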

How the data were processed

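Gene expression was measured on 10 1-colour Agilent mouse arrays with 62976 spots each. Per the file headers, the deposited intensities came from Agilent Feature Extraction 10.7.3.1. Its settings placed probes on mm9, detrended the signal, subtracted no background and gave dim spots surrogate values. The authors' deposited series table holds log2 values (correlation across probes with the scanner values 0.998 to 1.000, the same SD of 3.81 in every column, medians of -3.42 to -3.32). How it was normalized is not given in the sources used here, so it served as an alternative.

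The processed signal was put on the log2 scale, the 75th percentile of each array was taken off, and spots of a probe were averaged. Probes with any flagged value were dropped (176 of 55681), as were those that no group showed well above background on both its arrays, leaving 43055. A gene was represented by its brightest probe on average (28189 genes), and 2929 names were brought up to date through RefSeq accessions. Names were not taken from the Ts15 replicate 2 file, which had passed through a spreadsheet.

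One mean per group was fitted over all 10 arrays with limma 3.58.1 in R 4.3.3 (5 residual and 2.67 prior degrees of freedom), with Benjamini-Hochberg adjustment and calls at an adjusted p under 0.05. A fold marked "at least" sets a dim group at the lowest signal well above background on its arrays. The number of arrays limits the precision. The code of the fit was run on simulated arrays with independent noise and known changes in Ts6 alone. Those arrays held no effect of slide, passage or line, so the run does not bear on these. Tables were made in Python 3.11.15 (pandas 2.3.3) and plots with matplotlib 3.10.9.

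The 9 genes and the lists were chosen with earlier results of these data known. Named were the 9 genes, the genes next to the lowest-ranked of them among those called lower in all lines, the genes closest in pattern, and related genes called in some line (at most 6 per list) or partners of a member. Alternatives were quantile normalization, normexp (offset 50), the authors' table, other dim-probe filters, the mean of a gene's probes, only the groups compared, slide 1 only, a replicate block, passage as a covariate, each array left out and, added after the data were seen, no scaling between arrays.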

Additional observations from a re-analysis of the deposited data

Results flagged for a closer look

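Differences between lines were tested directly (limma, adjusted over all genes within a pair of lines). Of the 9 genes, 8 had a call in some pair, 1 of them (Spats2l) on signal at background. This count is a description only, since the choice of genes can favour large falls and a small spread. In single pairs 7.28% to 18.2% of all genes were called, and the share called in any pair was not computed. The widest called difference of each gene is given here with its range over the fits that left out 1 array. Ntm in Ts6 minus Ts8 was -1.43 (adjusted p = 0.00023; range -1.49 to -1.38), and the call remained in all 10 such fits. Spats2l in the same pair was -1.31 (adjusted p = 0.0041; range -1.47 to -1.15), but its probe was above background on no Ts6 array and the bound this sets on Ts6 (-5.91) lies above the Ts8 mean (-6.04), so no difference is shown, and with normexp the call was lost. Wdr86 in Ts6 minus Ts8 was -0.61 (adjusted p = 0.015; range -0.70 to -0.53), a call lost without Ts6 replicate 1 or Ts8 replicate 1. Sema3e in that pair was -0.50 (adjusted p = 0.040; range -0.63 to -0.37) and kept its call in 2 of 10 fits, those without Ts11 replicate 1 or 2.

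Rassf9 in Ts8 minus Ts15 was -1.94 (adjusted p = 0.023; range -2.55 to -1.33), a call lost without Ts8 replicate 2 or either Ts15 replicate. Ctxn3 in Ts6 minus Ts15 was -1.45 (adjusted p = 0.021; range -1.58 to -1.33) and Chst3 in Ts11 minus Ts15 was 1.07 (adjusted p = 0.030; range 0.97 to 1.18), and both lost the call without any 1 of the 4 arrays compared. The Chst3 call was also lost with quantile normalization, normexp, the authors' table and no filter on dim probes. Over all alternatives, the calls were kept in 12 of 20 for Chst3, 16 of 20 for Ctxn3, 15 of 19 for Rassf9, 17 of 21 for Wdr86, 6 of 21 for Sema3e, 7 of 20 for Prr18 and 21 of 21 for Ntm. Prr18 in Ts11 minus Ts15 was -0.56 (adjusted p = 0.044; range -0.66 to -0.45) and kept its call in 2 of 10 fits, those without Ts8 replicate 1 or 2. In these pairs with Ts15, line and slide cannot be told apart. For Rassf9, 1 of the 2 Ts8 arrays was not above background.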

How the results depend on the processing

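With 2 arrays per group, the spread was pooled over groups, and fewer calls were made with only the groups compared. The sign against WT is not given as a sign of stability, since the genes were chosen on it. The number of genes called lower in all 4 lines was 8, and 3 with no filter on dim probes, 0 with only the groups compared, 0 with passage as a covariate, 5 with no scaling between arrays and 0 to 7 without 1 array. Over Ts6, Ts8 and Ts11 it was 8, and 4 on slide 1 only. The number of differences called between lines was 19, and 9 with only the groups compared, 11 with no scaling and 9 to 18 without 1 array. For the related genes the number of calls was 31, and 15 with no filter on dim probes, 6 with only the groups compared, 3 with passage as a covariate and 5 to 30 without 1 array, and over Ts6, Ts8 and Ts11 it was 28, and 16 on slide 1 only. The other alternatives moved these counts by at most 1.5 times, other than the block below, and the cause of the moves was not tested. Where 1 array was left out, the lone array of its group is assumed to vary like the other groups.

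Same-numbered replicates did not deviate together in every pair of groups (correlation -0.1 to 0.392), so the numbers are not taken as a pairing. The replicate block gave 5 genes called lower in all lines, 16 differences called between lines and 29 calls among related genes. Each group's passages and slide rows follow the replicate number, so passage and row cannot be fully told apart.

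Of 383 alternative values of the 19 called differences between lines, 271 passed the threshold, 112 kept the direction without passing it and 0 changed sign, and 8 differences not called passed it in some alternative. Among the differences that were not called, 38 values in 15 differences changed sign, none of them called. Quantile normalization, normexp and the authors' table gave -0.248, -0.206 and -0.255 for Chst3 Ts8 minus Ts15, -0.087, -0.03 and -0.088 for Spats2l Ts8 minus Ts15, and -0.029, -0.083 and -0.02 for Wdr86 Ts8 minus Ts15, and normexp gave -0.004 for Rassf9 Ts6 minus Ts8. No scaling gave 0.12 for Ntm Ts11 minus Ts15, 0.239 for Sema3e Ts6 minus Ts15, 0.031 for Prr18 Ts8 minus Ts15 and 0.151 for Wdr86 Ts6 minus Ts11. For Ntm Ts11 minus Ts15 the mean of its probes gave 0.04 and passage as a covariate 0.004. Without 1 array, the ranges were -0.251 to 0.386 (Chst3 Ts8 minus Ts15), -0.2 to 0.031 (Prr18 Ts8 minus Ts15), -0.067 to 0.084 (Wdr86 Ts8 minus Ts15) and -0.716 to 0.152 (Ctxn3 Ts8 minus Ts15). They were -0.032 to 0.027 (Ntm Ts11 minus Ts15), -0.099 to 0.205 (Raet1a Ts11 minus Ts15), -0.87 to 0.008 (Rassf9 Ts11 minus Ts15), -0.488 to 0.088 (Ctxn3 Ts11 minus Ts15) and -0.008 to 0.247 (Sema3e Ts8 minus Ts11). For the rest they were -0.516 to 0.352 (Ctxn3 Ts8 minus Ts11), -0.018 to 0.191 (Prr18 Ts6 minus Ts11), -0.093 to 0.069 (Wdr86 Ts6 minus Ts11) and -0.578 to 0.64 (Rassf9 Ts6 minus Ts8). Of the 19 called differences, the 3 of Spats2l with Ts6 rest on signal at background. Signal over background limits Spats2l in Ts6 and Ts11 and the other Ntm probe to bounds.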
